A study of Homo sapiens with 6 samples.

Results

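AP-1 is a family of dimeric transcription factors built from basic leucine zipper proteins of the JUN, FOS, ATF and MAF groups. The mRNA of 10 named subunits was followed here, out of 20263 genes in the deposited TPM table: *JUN*, *JUNB* and *JUND*; *FOS*, *FOSB*, *FOSL1* and *FOSL2*; *ATF3* and *BATF3*; and the small MAF gene *MAFF*. The members were taken by name, and all 10 had a line in the table and passed the filter on low values, which asked for 1 TPM or more in 3 or more libraries. TPM expresses each gene's share of a library's transcripts, after correction for transcript length, on a fixed total, so levels of different genes can be set side by side.

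RNA was sequenced from HCT116, an established human colorectal cancer line. The tested samples were 3 of HCT116 treated with CSE, an abbreviation left unexplained in the labels and taken here, from the word smoking in the series title, as cigarette smoke extract. They were compared with 3 samples of HCT116 that the labels call WT, with no genetic change or solvent control named for either group. The sources used here give neither dose nor exposure time. The labels do not call the samples of a group separate cultures, so the spread that p-values are set against may be technical.

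JUN proteins pair with each other or with FOS proteins, while FOS proteins need a JUN partner to bind DNA. JUN:FOS dimers prefer the element TGACTCA (TRE), and dimers with an ATF subunit prefer TGACGTCA (CRE). *JUN* and *FOS* are immediate early genes: their mRNAs are short-lived and are induced within minutes by growth factors, stress and DNA damage through the ERK, JNK and p38 kinases. JUN is a strong activator that binds its own promoter, JUNB is a weaker activator that can oppose JUN, and JUND is expressed more evenly. In intestinal epithelium and colorectal tumours AP-1 acts downstream of growth factor and Wnt signalling.

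Between 12640 and 12778 genes reached 1 TPM per library, and the sequencing depth is unknown because TPM does not keep it. Mitochondrially encoded genes held 25.5% to 25.8% of the TPM in CSE samples and 27.0% to 30.2% in WT samples; their part in the results was not tested, and values with these genes left out are given where they change a call. The epithelial identity of the line was visible in *KRT8*, *KRT18*, *KRT19*, *EPCAM*, *CDH1* and *CDX2*, with 6 of 10 epithelial markers at 1 TPM or more in at least 1 library and a summed level of 5307 to 5613 TPM in CSE and 5082 to 5315 TPM in WT. The intestinal markers *VIL1*, *CDX1*, *CDH17* and *LGALS4* stayed below 1 TPM. Of the markers of other cells, *COL1A1* alone of 8 fibroblast genes and *CD68* and *CD14* of 6 leukocyte genes reached 1 TPM, and 0 of 4 endothelial genes did. The summed level was 38.1 to 38.7 TPM in CSE and 44.0 to 46.0 TPM in WT for the fibroblast list, 12.9 to 13.8 TPM in CSE and 19.2 to 19.6 TPM in WT for the leukocyte list, and 1.31 to 1.53 TPM in CSE and 0.75 to 1.22 TPM in WT for the endothelial list. The leukocyte marker *PTPRC* was listed at 0 in all CSE libraries, and the fibroblast marker *DCN* was listed at 0 in all 6.

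The promoters of several members hold elements that AP-1 and ATF dimers recognise, and the stretches around them are printed because the members with such elements include both those that fell most and one that did not pass the test. RefSeq windows on GRCh38.p14, from 250 bases before to 50 bases after the start, were found for 8 of the 10 members; *FOSL1* and *BATF3* are named only. Each stretch is 30 bases on the strand of its gene, and the capitals mark the matched motif.
JUN distal element, chr1:58784215-58784244, minus strand: gcagcggagcaTTACCTCAtcccgtgagcc
JUN proximal element and MEF2 site, chr1:58784089-58784118, minus strand: ggggTGACATCAtgggCTATTTTTAGgggt
JUND, chr19:18281804-18281833, minus strand: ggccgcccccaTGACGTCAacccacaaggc
FOS, chr14:75278752-75278781, plus strand: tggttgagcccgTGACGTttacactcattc
FOSB, chr19:45467924-45467953, plus strand: gcaaggggcgggTGACGTaagcaggggggc
FOSL2, chr2:28392851-28392880, plus strand: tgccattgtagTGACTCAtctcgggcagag
ATF3, chr1:212565273-212565302, plus strand: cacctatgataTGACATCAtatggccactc
MAFF, chr22:38201929-38201958, plus strand: ggccgggtcggTGACGTCAccgcatgactg

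In the *JUN* promoter TTACCTCA began 186 bases and TGACATCA 67 bases before the RefSeq start; these are the known jun2 and jun1 elements, at which JUN with ATF2 binds. The MEF2 site, in capitals after the second of them, began 55 bases before the start. TGACATCA also stood 123 bases before the upstream start of *ATF3*, a gene known to bind its own promoter. The full CRE was found in *JUND*, 200 bases before the start, and in *MAFF*, 54 bases before it. Its first 6 bases, TGACGT, stood 64 bases before the start of *FOS* and 60 before that of *FOSB*, and also 66 before that of *FOSL2* and, on the other strand, 87 before that of *JUND*. The consensus TRE was present in *FOSL2* alone, 5 bases after the start.

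Over all 35116 RefSeq windows of this length, searched on both strands, TGACTCA was present in 4.95%, TGACGTCA in 1.85%, TGACATCA in 2.61%, TTACCTCA in 0.715% and the MEF2 site in 0.142%. TGACGT, which is part of the full CRE and so is counted wherever that occurs, was present in 7.98%. TTACCTCA and TGACATCA were searched as known elements of the *JUN* promoter, as was the MEF2 site. Their presence in the *JUN* window was therefore fixed in advance, and the shares over all windows do not make it a finding. None of the motifs searched was found in the *JUNB* window, and the CArG box of serum response factor, present in 1.29% of all windows, was found in none of the members' windows. Sequence more than 250 bases before the start was not searched, so a CArG box further upstream, in *FOS* or another member, would be missed. Matches are descriptions of sequence, and no binding was measured. In the GENCODE 29 annotation, which starts some transcripts further upstream, 5 of the 8 printed stretches overlap an untranslated part of an exon: both of *JUN* and those of *FOS*, *FOSL2* and *MAFF*.

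CSE samples had less mRNA of 6 AP-1 subunits and more of 2 than WT samples. The mean TPM of *JUN* fell by 62.65%, the most of the 10, followed by *ATF3*, *FOS*, *MAFF*, *FOSB* and *JUND*, while *JUNB* and *BATF3* rose by under 1.2-fold. The FOS-related genes *FOSL1* and *FOSL2* did not pass the test. In bulk RNA, fewer cells expressing a gene and less of its RNA per cell cannot be told apart. A log2 fold change is the CSE mean minus the WT mean of log2(TPM + 1), a scale that understates the change of genes with few TPM, and was tested with limma across 12793 genes with Benjamini-Hochberg adjustment at 0.05. In that fit 50.1% of all genes tested were called, 24.5% as higher and 25.6% as lower, so the count of 8 of 10 members stands beside a background of 50.1%. Leaving out mitochondrially encoded genes and rescaling changed the share of calls that were higher to 34.1%, against 48.9% with TPM as deposited. The members' median log2 fold change was -0.28, against -0.0039 for all genes tested. The 3 CSE values and the 3 WT values did not overlap for 8 of 10 members, against 57.4% of all genes tested.

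**Figure D1:**
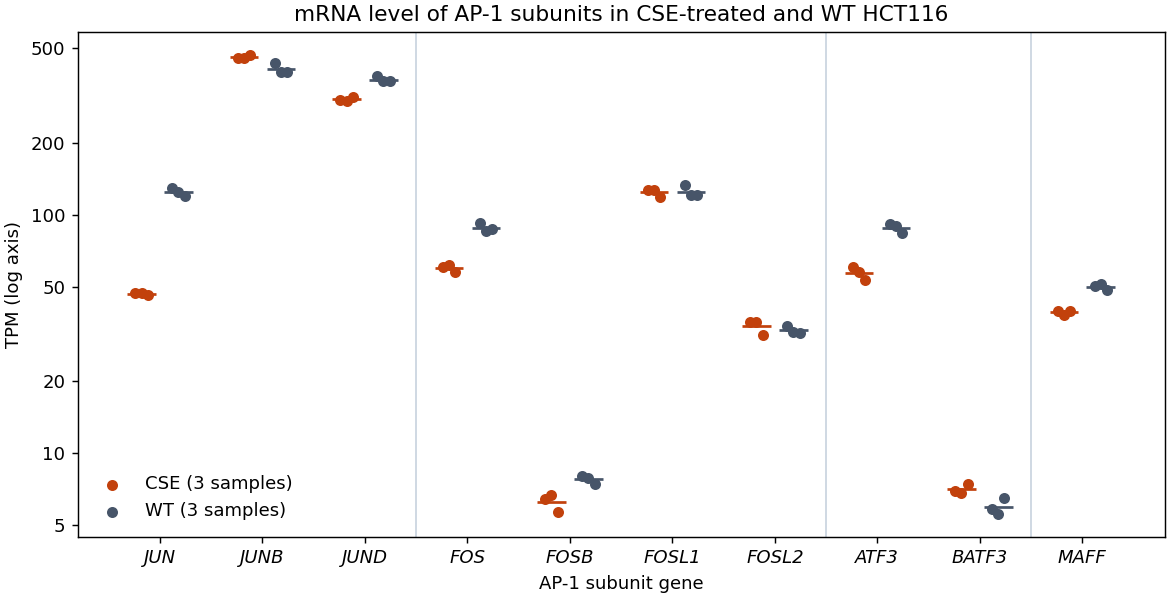
TPM (log axis) of each AP-1 subunit gene in the 3 CSE samples (left of each pair) and the 3 WT samples (right), with a line at each mean and grey lines between the JUN, FOS, ATF and MAF groups. JUN lies at 46.0 to 47.1 TPM in CSE and above 120 TPM in WT, while FOSL1 and FOSL2 overlap between the groups.

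**Figure D2:**
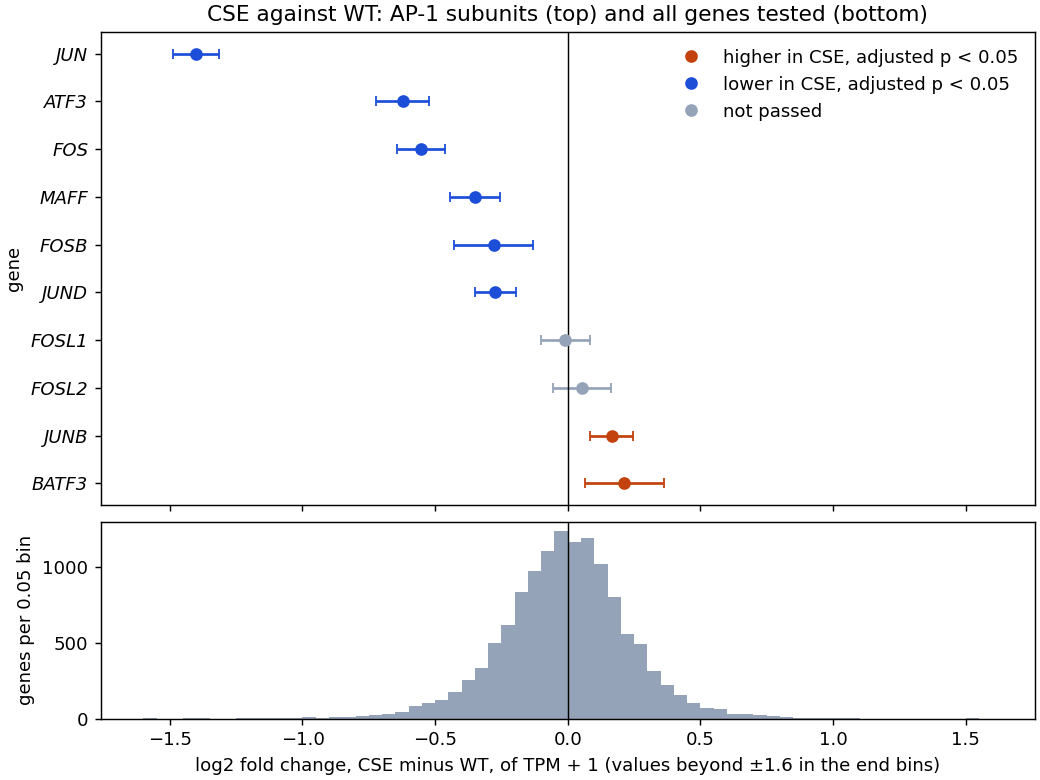
Upper panel: log2 fold change (CSE minus WT, TPM + 1) of each member with its 95% confidence interval from limma, coloured by call. Lower panel: the number of genes at each log2 fold change among all 12793 tested; JUN at -1.40 lies in the far left tail, and the other members lie between -0.62 and 0.21.

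The JUN family split. *JUN* (ENSG00000177606, chromosome 1, 58780788 to 58784327, minus strand, GRCh38) had 46.8, 47.1 and 46.0 TPM in the CSE samples, against 129.8, 125 and 120.5 TPM in the WT samples. The groups were far apart and the CSE samples lay within about 1 TPM of each other. Its mean was 46.7 ± 0.569 TPM in CSE and 125 ± 4.69 TPM in WT (SD, n = 3 each), 2.68-fold lower (log2 fold change -1.40 with SE 0.0421, limma adjusted p = 1.2e-16). Ranked by log2 fold change among the 12793 genes tested, *JUN* was number 10 from the lowest.

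*JUNB*, the subunit that can oppose JUN (ENSG00000171223, chromosome 19, 12791496 to 12793315, plus strand), had 454, 454 and 468 TPM in the CSE samples, against 432, 397 and 397 TPM in the WT samples. All CSE values were higher than all WT values, and WT replicate 1 stood above the other WT samples. The rise was 1.12-fold (log2 fold change 0.17 with SE 0.0394, limma adjusted p = 0.00143). With quantile normalization it was 0.11 on the log2 scale, and with mitochondrially encoded genes left out it was also 0.11, both still passing (limma adjusted p = 0.00305 and 0.00753). Without the filter on low values the call was close to the threshold (limma adjusted p = 0.0458). The gene overlaps *HOOK2* on the opposite strand, which had a mean of 76.9 TPM in CSE and 81.9 TPM in WT and did not pass the test (log2 fold change -0.087, limma adjusted p = 0.136).

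*JUND* (ENSG00000130522, chromosome 19, 18279760 to 18281622, minus strand) had 305, 299.7 and 312 TPM in the CSE samples, against 381, 364 and 363 TPM in the WT samples. The groups did not overlap. It fell 1.21-fold (log2 fold change -0.27 with SE 0.0371, limma adjusted p = 3.11e-06), a smaller change than that of *JUN*.

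The make-up of the JUN family mRNA pool was set out as shares of its summed TPM. *JUN* made up 5.81%, 5.89% and 5.57% of the summed *JUN*, *JUNB* and *JUND* TPM in the CSE samples, against 13.8%, 14.1% and 13.7% in the WT samples. *JUNB* made up 56.6 ± 0.149% in CSE and 45.3 ± 0.532% in WT, and *JUND* 37.7 ± 0.211% in CSE and 40.9 ± 0.451% in WT (SD, n = 3 each). In both groups *JUNB* was the largest part, and in CSE it was over 50% of the pool. The ratio of *JUNB* to *JUN* TPM was 9.83 ± 0.289 in CSE and 3.27 ± 0.0756 in WT.

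The summed TPM of the JUN family was 806, 800.5 and 826 in the CSE samples, against 943, 886 and 881 in the WT samples. The sum was lower in every CSE sample than in every WT sample, with a mean difference of -92.5 TPM. *JUN* contributed -78.3 TPM and *JUND* -63.8 TPM to that difference, and *JUNB* 49.6 TPM in the other direction. With mitochondrially encoded genes left out the difference was -174 TPM. That rescaling leaves the shares within the family as they are but raises the TPM of every remaining gene. The size of this difference is therefore not comparable with -92.5 TPM. For 11 measures of composition and summed level of the JUN and FOS families the groups were compared by a two-sided exact permutation test, whose smallest p with 3 against 3 samples is 0.10. That smallest p was reached by 10 of them (Benjamini-Hochberg adjusted p = 0.11 over the 11), which is not below 0.05 because the design cannot go lower. The 11 measures are built from the same genes and depend on each other, so this count is not a count of separate results.

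**Figure D3:**
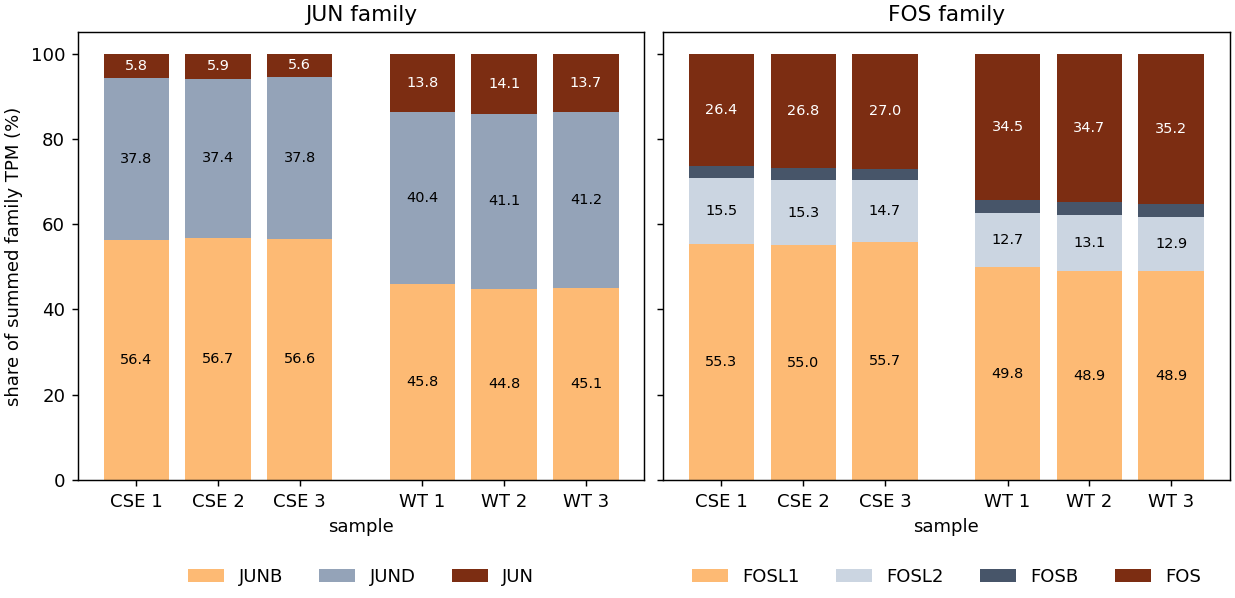
Share (%) of each gene in the summed TPM of the JUN family (left) and the FOS family (right), with 1 bar for each of the 3 CSE and 3 WT samples. The JUN segment is 5.57% to 5.89% in CSE and 13.7% to 14.1% in WT, and the FOS segment is 26.4% to 27.0% in CSE and 34.5% to 35.2% in WT.

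The FOS family also split, between the immediate early pair and the FOS-related pair. *FOS* (ENSG00000170345, chromosome 14, 75278774 to 75282230, plus strand), the classical partner of JUN, had 60.5, 61.7 and 57.7 TPM in the CSE samples, against 92.1, 85.65 and 87.5 TPM in the WT samples. Its groups were well separated. It fell 1.48-fold (log2 fold change -0.55 with SE 0.0439, limma adjusted p = 1.32e-09).

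*FOSB* (ENSG00000125740, chromosome 19, 45467995 to 45475179, plus strand), its close relative, was among the least abundant members, with 6.41, 6.68 and 5.65 TPM in the CSE samples, against 8.01, 7.90 and 7.44 TPM in the WT samples. The groups did not overlap, and CSE replicate 3 was the lowest. The fall was 1.246-fold (log2 fold change -0.28 with SE 0.0719, limma adjusted p = 0.00271, or 0.0437 without the filter). The gene overlaps the DNA repair gene *ERCC1* on the opposite strand, and the sources used here do not state the strandedness of the libraries, so their reads cannot be told apart. *ERCC1* had a mean of 55.2 TPM in CSE and 51.5 TPM in WT (log2 fold change 0.099, limma adjusted p = 0.0621).

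*FOSL1* encodes FRA1, a FOS protein without the strong activation domain of FOS that is stabilised by ERK signalling (ENSG00000175592, chromosome 11, 65892049 to 65900573, minus strand). It had 127, 127 and 119 TPM in the CSE samples, against 133, 121 and 121 TPM in the WT samples. The groups overlapped, with CSE replicate 3 lowest of all and WT replicate 1 highest of all. The log2 fold change was -0.0099 with a 95% confidence interval of -0.10 to 0.082 (limma adjusted p = 0.869), and its sign turned positive without either of those samples.

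*FOSL2* encodes FRA2 (ENSG00000075426, chromosome 2, 28392448 to 28417312, plus strand) and had 35.6, 35.4 and 31.4 TPM in the CSE samples, against 34.05, 32.4 and 31.95 TPM in the WT samples. Here too CSE replicate 3 was the lowest sample of all and the groups overlapped. The log2 fold change was 0.055 with an interval of -0.055 to 0.16 (limma adjusted p = 0.405), and without CSE replicate 3 it passed the threshold at 0.11 (limma adjusted p = 0.0398). With mitochondrially encoded genes left out it was -0.0014, so no direction can be given for *FOSL2*.

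The share of *FOSL1* in the summed TPM of the 4 FOS genes was 55.3%, 55.0% and 55.7% in the CSE samples, against 49.8%, 48.9% and 48.9% in the WT samples. *FOS* made up 26.7 ± 0.295% in CSE and 34.8 ± 0.401% in WT, and *FOSL2* 15.2 ± 0.443% in CSE and 12.9 ± 0.204% in WT (SD, n = 3 each). The level of *FOSL1* itself did not pass the test, so its larger share stood beside the lower level of *FOS*. *FOSB* remained the smallest part, at 2.78 ± 0.128% in CSE and 3.06 ± 0.120% in WT. The 4 genes summed to 229, 231 and 214 TPM in the CSE samples, against 267, 247 and 248 TPM in the WT samples, and *FOS* itself differed by -28.5 TPM where the sum differed by -29.6 TPM. With mitochondrially encoded genes left out the sum differed by -53.7 TPM, on a scale raised by the rescaling and so not comparable with -29.6 TPM. The ratio of the summed JUN family to the summed FOS family was 3.62 ± 0.215 in CSE and 3.56 ± 0.0344 in WT (two-sided exact permutation p = 1), with CSE replicate 3 at 3.87 above the other 5 samples.

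*ATF3*, a stress-induced partner of JUN that as a homodimer represses transcription, and *BATF3*, a small subunit without an activation domain best known from dendritic cells, moved in opposite directions. They are neighbours on chromosome 1, 65641 bases apart and transcribed from opposite strands. *ATF3* (ENSG00000162772, 212565334 to 212620777, plus strand) had 60.2, 57.7 and 53.2 TPM in the CSE samples, against 91.8, 89.5 and 83.7 TPM in the WT samples. With no overlap between the groups it fell 1.55-fold (log2 fold change -0.62 with SE 0.0487, limma adjusted p = 1.08e-09).

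*BATF3* (ENSG00000123685, 212686418 to 212699985, minus strand) had 6.91, 6.84 and 7.41 TPM in the CSE samples, against 5.84, 5.57 and 6.46 TPM in the WT samples. The CSE values were all higher, by a small margin at these low levels. It rose 1.18-fold (log2 fold change 0.21 with SE 0.0720, limma adjusted p = 0.0179). That call was lost without WT replicate 1 (log2 fold change 0.20, limma adjusted p = 0.062), without WT replicate 2 (0.17 and 0.102), without the filter on low values (0.21 and 0.0719) and with mitochondrially encoded genes left out (0.17 and 0.0734).

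*MAFF* encodes a small MAF protein, which has no activation domain and pairs with the CNC factors, such as NRF2, at antioxidant response elements (ENSG00000185022, chromosome 22, 38200767 to 38216511, plus strand). It had 39.45, 37.85 and 39.7 TPM in the CSE samples, against 50.2, 51.2 and 48.3 TPM in the WT samples. The groups did not overlap and *MAFF* fell 1.28-fold (log2 fold change -0.35 with SE 0.0454, limma adjusted p = 1.7e-06). *PLA2G6*, which overlaps it on the opposite strand, went the other way, with a mean of 16.7 TPM in CSE and 13.2 TPM in WT (log2 fold change 0.31, limma adjusted p = 0.000321).

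Ordered by mean TPM, the members in CSE ran *JUNB*, *JUND*, *FOSL1*, *FOS*, *ATF3*, *JUN*, *MAFF*, *FOSL2*, *BATF3* and *FOSB*. In WT the order was *JUNB*, *JUND*, *FOSL1*, *JUN*, *FOS*, *ATF3*, *MAFF*, *FOSL2*, *FOSB* and *BATF3*. *JUN* stood in place 6 in CSE and in place 4 in WT, where its values overlapped those of *FOSL1*. The values of *FOS* and *ATF3* overlapped in both groups, and all other neighbours were separated in their 3 values. At the low end *BATF3* lay above *FOSB* in CSE and below it in WT.

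The 5 genes whose profiles were nearest to that of *JUN*, by Euclidean distance between log2(TPM + 1) values centred on each gene's mean over the 6 samples, were *KLK5*, *TIMP3*, *KRT7*, *FOXQ1* and *CREB5*. The distances were 0.079, 0.151, 0.203, 0.239 and 0.255. *KLK5*, a secreted serine protease gene, had 26.8, 25.5 and 26.9 TPM in the CSE samples, against 74.8, 71.3 and 69.0 TPM in the WT samples. *TIMP3*, a metalloprotease inhibitor gene, averaged 5.37 TPM in CSE and 15.6 TPM in WT, and *KRT7*, a simple-epithelial keratin gene, 138 TPM in CSE and 330.1 TPM in WT. *FOXQ1*, a forkhead factor gene, averaged 5.81 TPM in CSE and 16.1 TPM in WT. *CREB5*, which encodes a basic leucine zipper protein related to ATF2, averaged 3.83 TPM in CSE and 10.4 TPM in WT. Likeness here rests on 6 libraries in 2 groups, so it is mainly a like difference between the groups.

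**Figure D4:**
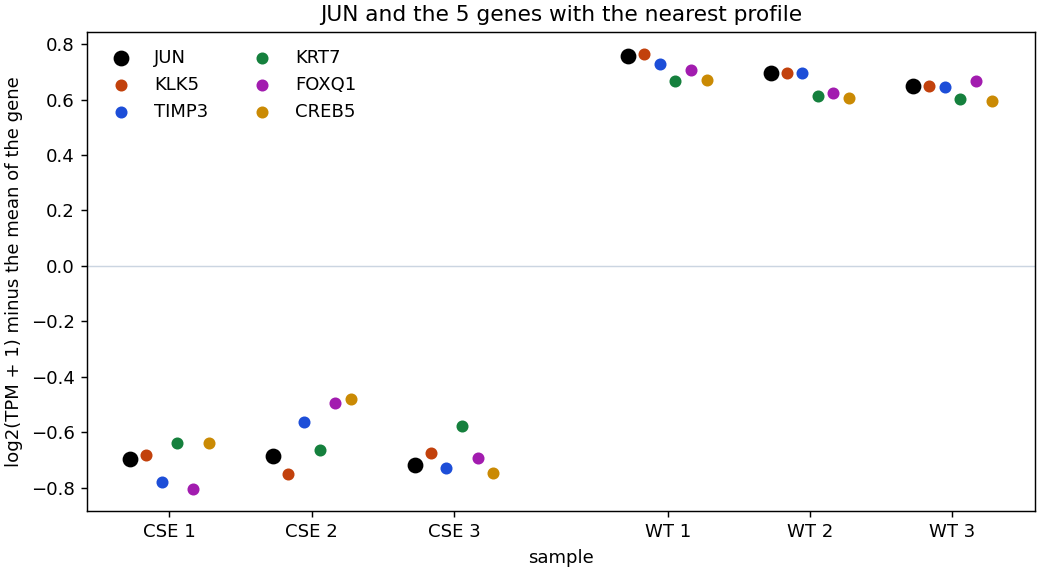
Log2(TPM + 1) minus the mean of each gene over the 6 samples, for JUN (black) and the 5 genes with the smallest Euclidean distance to it, in the 3 CSE and 3 WT samples. All 6 genes lie below 0 in every CSE sample and above 0 in every WT sample.

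The remaining ATF, BATF and JDP subunits were fewer and mixed: of 5, 4 were tested, 1 rose, 2 fell and 1 did not pass (median log2 fold change -0.14). Among all genes tested 24.5% rose and 25.6% fell. *JDP2*, a repressive partner of JUN, had 11.17, 11.02 and 12.16 TPM in the CSE samples, against 19.0, 17.9 and 17.9 TPM in the WT samples (log2 fold change -0.63 with SE 0.0585, limma adjusted p = 1.37e-08). *ATF2*, the partner of JUN at its own promoter, was 1.12-fold higher in CSE (24.1 ± 0.702 TPM in CSE and 21.5 ± 1.09 TPM in WT, log2 fold change 0.16, limma adjusted p = 0.0151). The call for *ATF2* was lost when CSE replicate 1 (limma adjusted p = 0.0681), WT replicate 1 (0.0571) or WT replicate 3 (0.0692) was left out, without the filter (0.0596) and with mitochondrially encoded genes left out (0.0894). Its homologue *ATF7* averaged 18.3 TPM in CSE and 22.2 TPM in WT (log2 fold change -0.27, limma adjusted p = 0.00225, or 0.127 without the filter), with CSE replicate 3 lowest at 15.6 TPM and a log2 fold change of -0.17 without it. *BATF2* did not pass, and *BATF* was listed at 0 in all samples.

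Of 12 other MAF, CNC and BACH genes, 10 were tested, 1 rose, 6 fell and 3 did not pass (median log2 fold change -0.30). These counts stand beside 24.5% higher and 25.6% lower over all genes tested. The small MAF gene *MAFG* had 46.6, 47.5 and 45.9 TPM in the CSE samples, against 63.5, 64.4 and 62.4 TPM in the WT samples (log2 fold change -0.43, limma adjusted p = 3.19e-08). The third small MAF gene, *MAFK*, did not pass (37.8 TPM in CSE, 37.0 TPM in WT, limma adjusted p = 0.614). Among the CNC factors, *NFE2L3* (log2 fold change -0.47) and *NFE2L1* (-0.37) fell, whereas *NFE2L2*, which encodes NRF2, rose (0.20, limma adjusted p = 0.000411). The large MAF gene *MAFA* (-0.56) and the repressor gene *BACH1* (-0.35) fell as well.

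Of 20 ATF/CREB and C/EBP factors, 19 were tested, 5 rose, 6 fell and 8 did not pass (median log2 fold change 0.025). That is near the shares over all genes tested, 24.5% higher and 25.6% lower. *CREB5* showed the largest change, 3.41 to 4.31 TPM in CSE against 10.2 to 10.8 TPM in WT (log2 fold change -1.25, limma adjusted p = 1.86e-11). *CEBPD*, a C/EBP gene induced by inflammation, was higher in CSE (0.48, limma adjusted p = 0.000626, or 0.115 without the filter), as was *ATF5* (0.44, limma adjusted p = 7.04e-05).

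Next come the genes that act on AP-1. Of 29 JNK, p38 and ERK cascade kinases and scaffolds, 27 were tested, 7 rose, 7 fell and 13 did not pass, with a median log2 fold change of -0.028. This is near the shares over all genes tested, 24.5% higher and 25.6% lower, so the counts show nothing particular to these kinases. The JNK genes *MAPK8* (33.4 TPM in CSE, 34.5 TPM in WT, limma adjusted p = 0.497) and *MAPK9* (23.3 TPM in CSE, 22.8 TPM in WT, limma adjusted p = 0.69) did not pass. The largest changes were rises of kinases upstream of JNK: *TNIK* by 0.56, *MAP3K12* by 0.44 and *MAP4K4* by 0.35 on the log2 scale. The values are of mRNA and do not show kinase activity or JUN phosphorylation.

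MAP kinase phosphatases, which switch these kinases off and several of which are themselves early response genes, were mostly lower: of 10 tested, 1 rose, 7 fell and 2 did not pass (median log2 fold change -0.17). Over all genes tested 24.5% were higher and 25.6% lower. *DUSP1*, which acts on JNK and p38, had 19.8, 19.9 and 19.2 TPM in the CSE samples, against 32.6, 32.9 and 30.3 TPM in the WT samples (log2 fold change -0.67, limma adjusted p = 6.41e-10). *DUSP7* (-0.50) and the JNK phosphatase gene *DUSP8* (-0.35) fell too. The 8 calls of this list were 6 or 7 when 1 sample was left out, and the gene that rose, *DUSP6*, was close to the threshold (limma adjusted p = 0.0476).

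Among 9 SRF, ETS and MEF2 factors that bind the *FOS* and *JUN* promoters, 2 rose, 4 fell and 3 did not pass (median log2 fold change -0.12). For this list and the next, the shares over all genes tested were 24.5% higher and 25.6% lower. *ELK3*, an ETS repressor of serum response elements, was at 76.5 ± 3.64 TPM in CSE and 112 ± 2.72 TPM in WT (log2 fold change -0.54, limma adjusted p = 1.34e-09). *ELK4* fell by 0.30 on the log2 scale (limma adjusted p = 0.000435, or 0.0744 without the filter), and *MEF2C* rose by 0.44. Among 8 genes of JUN protein turnover, 3 rose, 2 fell and 3 did not pass (median 0.049), led by *USP28* (0.18), *TRIB1* (-0.17) and *ITCH* (-0.16). *USP28* lost its call in 7 of the 15 alternatives and *ITCH* without the filter (limma adjusted p = 0.0973), and the log2 fold change of *ITCH* was -0.11 without CSE replicate 3. The 5 calls of this list were 2 without CSE replicate 1 and 3 without CSE replicate 2, WT replicate 1 or WT replicate 3.

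Of 32 reported AP-1 target genes, 22 were tested, 6 rose, 10 fell and 6 did not pass, with a median log2 fold change of -0.084. For comparison, 24.5% of all genes tested rose and 25.6% fell. *MMP1*, among the 10 that fell, passed the filter on low values through its WT samples alone. *CXCL8*, which encodes the chemokine interleukin-8, averaged 6.48 ± 0.854 TPM in CSE and 12.9 ± 0.839 TPM in WT (log2 fold change -0.90, limma adjusted p = 4.28e-09). *SPP1*, the osteopontin gene, went the other way, with 5.40 ± 0.411 TPM in CSE and 2.83 ± 0.421 TPM in WT (log2 fold change 0.74, limma adjusted p = 4.8e-07).

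Immediate early genes outside the AP-1 family were divided as well: of 25, 24 were tested, 6 rose, 12 fell and 6 did not pass (median log2 fold change -0.10). Set beside this, 24.5% of all genes tested rose and 25.6% fell. *CCN2* and *CCN1*, matricellular genes that serum and YAP induce, fell by 0.87 and 0.77 on the log2 scale (limma adjusted p = 1.15e-11 and 6.12e-12). *IER5L* rose by 0.53 (limma adjusted p = 1.17e-09), with 272, 273 and 292 TPM in the CSE samples, against 203, 186 and 188 TPM in the WT samples.

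**Figure D5:**
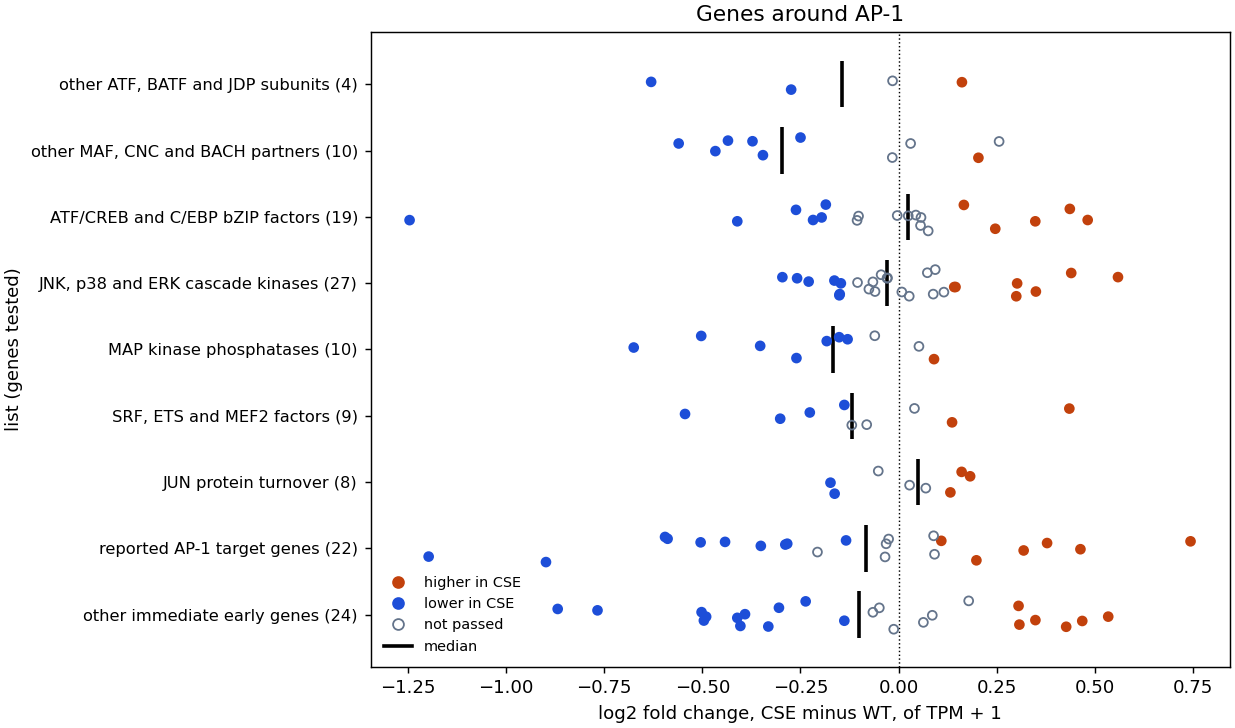
Log2 fold change (CSE minus WT, TPM + 1) of each tested gene in 9 lists around AP-1, with filled points for calls, open points for genes that did not pass and a black bar at the median of each list. The medians run from -0.30 for the other MAF, CNC and BACH partners to 0.049 for JUN protein turnover, and calls in both directions are present in every list.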

How the data were processed

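Poly(A) RNA-seq was done on 3 CSE-treated and 3 WT samples of HCT116, grouped and numbered by their titles. The authors deposited 1 table of TPM per Ensembl gene and sample, not pooled (0 columns unmapped). GRCh38, HISAT2 2.0, Trimmomatic 0.36, bedtools 2.26.0 and FastQC 0.11.2 appear without roles in the submitters' processing notes. Counting program, annotation and strandedness: not given in the sources used here, so overlapping genes on opposite strands may share reads. TPM keeps no depth, so no counting interval or count model was used.

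Here, log2(TPM + 1) of the 12793 genes with at least 1 TPM in at least 3 libraries was fitted with limma 3.58.1 in R 4.3.3 (empirical Bayes with trend, no covariate, Benjamini-Hochberg over all genes). Shares and sums were compared by exact permutation in scipy 1.17.1. The fit was run on simulated data with far fewer changed genes than were called here and with independent noise. That run checks the code and does not bear on the calls made here. Positions are from GENCODE 29 on GRCh38, and symbols matched 20148 of 20263 IDs. The members and lists were chosen with earlier results of these data known. All members are named, as are, from other lists, the 3 called genes with the largest change and at least 2 TPM (any tested gene of the 2 lists of partner subunits), and the 5 profiles nearest to *JUN*; genes outside this rule, such as *MAPK8*, *MAPK9* and those overlapping members, were added after their values were seen. Some genes that this rule names are not reported here.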

Additional observations from a re-analysis of the deposited data

How the results depend on the processing

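Levels of single genes were recomputed under 15 alternatives (*SPP1* not at a mean of 5 TPM or more, which left it untested) and shares and sums under 8 of these. The 6 members called lower in CSE stayed called and lower in all 15, as did *JUNB* as higher. Without the filter on low values the limma adjusted p was just under 0.05 for *JUNB* (0.0458) and *FOSB* (0.0437). For *JUN* it was 0.00019 in that fit, against 1.2e-16 with the filter. *JUN* ranged from -1.46 to -1.37 on the log2 scale. The count of members called higher was 1 in place of 2 without the filter and with mitochondrially encoded genes left out, and 1 to 3 when 1 sample was left out. *FOSL1* ranged from -0.035 to 0.036 when 1 sample was left out. With mitochondrially encoded genes left out *FOSL1* was -0.068 (limma adjusted p = 0.152) and *FOSL2* -0.0014. The ratio of the JUN to the FOS family differed by -0.018 under quantile normalization and by -0.062 to 0.13 with 1 sample left out, against 0.062 as given. Without the filter, 20263 genes were tested and 23.9% of them were called, against 50.1% with it. In that fit calls numbered 1 among other ATF, BATF and JDP subunits, 7 among ATF/CREB and C/EBP factors, 9 among cascade kinases, 5 among MAP kinase phosphatases and 3 in JUN turnover. JUN turnover had 2 calls with mitochondrially encoded genes left out and 2 to 5 with 1 sample left out. The cause was not tested. Samples with the same replicate number did not deviate together (r = -0.071, 0.015 and -0.088; 0 of 6 samples correlated best with their own number). With the replicate number as a block, 6537 genes were called, against 6407 without it, and 8 members in both. The JUN family sum differed by -104 to -72.6 TPM with 1 sample left out. Depth is unknown, so no limit from counting can be given for low genes such as *FOSB* and *BATF3*.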

Other observations

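Some genes of the lists above that the naming rule leaves out were picked after their values were seen. *DDIT3* and *MMP1* are therefore already in the counts of their lists. *DDIT3*, the stress gene that encodes CHOP, was at 228 ± 11.2 TPM in CSE and 178 ± 2.95 TPM in WT (log2 fold change 0.35, limma adjusted p = 3.79e-07), whereas *ATF3*, which the same stress pathway can induce, was lower in CSE. *ATF4*, upstream of both, was at 664 ± 20.96 TPM in CSE and 652 ± 17.4 TPM in WT and did not pass (limma adjusted p = 0.608). These are levels of mRNA, and the activity of this stress pathway was not tested. The matrix metalloprotease genes *MMP1*, *MMP3*, *MMP7*, *MMP9*, *MMP10* and *MMP13*, textbook AP-1 targets, averaged below 1 TPM in CSE and at most 1.19 TPM in WT. Of these only *MMP1* passed the filter, and it did so through its WT samples alone (1.27, 1.15 and 1.16 TPM). It averaged 0.453 TPM in CSE and 1.19 TPM in WT (log2 fold change -0.59, limma adjusted p = 9.72e-05). Because it could be tested only by being high in WT, and lies near the filter, nothing is read from this call.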
